A study of Rattus norvegicus with 32 samples.

Results

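The major histocompatibility complex (MHC) class II genes and their transactivator were followed gene by gene in the left ventricle of male and female rats with and without experimental sepsis. The 8 members, of 27963 genes named on the array, were the probes whose gene name in the scanner files was RT1-Da, RT1-Db1, RT1-Ba, RT1-Bb, RT1-DMa, RT1-DMb, Cd74 or Ciita. They were represented by 9 probes, of which 2 were for Ciita. All animals were Wistar rats aged 9 to 12 weeks that received buprenorphine before surgery and a similar volume of infusion. The sham groups had no puncture of the caecum, the CLP groups had caecal ligation and puncture, which releases gut bacteria into the abdomen, and the CLP plus landiolol groups also received landiolol, a short-acting blocker of the beta-1 adrenergic receptor, from 1 h after CLP. Each sex had 5 sham, 5 CLP and 6 CLP plus landiolol arrays, and hearts were collected at 20 h, after perfusion outside the body in every group, so that the levels also carry that procedure. The animals had first served in an earlier experiment on cardiac function.

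Class II molecules are pairs of an alpha and a beta chain that present peptides taken up from outside the cell to CD4-positive T cells. In the rat, RT1-D (alpha chain RT1-Da, beta chain RT1-Db1) and RT1-B (RT1-Ba and RT1-Bb) are the presenting molecules, while RT1-DM (RT1-DMa and RT1-DMb) loads the peptide in the endosome and Cd74, the invariant chain, blocks the groove until then. Ciita encodes the coactivator that these promoters need. It binds no DNA itself and is recruited by RFX, CREB and NF-Y proteins sitting on the X and Y boxes, and interferon gamma induces it through its receptor's kinases and IRF1. Dendritic cells, macrophages and B cells are the classical class II-positive cells, and resident macrophages and dendritic cells carry class II in the heart.

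The X and Y boxes are shown first because they are a sequence feature that several of the members share. In the RefSeq promoter windows of build GRCr8, from 250 bases before to 50 bases after the annotated gene start, 6 of the 8 members had an entry, and RT1-DMb and Ciita had none. An X-like motif (GNNAC followed directly by NGATG, with N for any base) followed on the same strand by a Y box (ATTGG, the reverse complement of CCAAT) was found in 4 of these 6, with the start of Y 32 or 33 bases after the start of X. The stretches from X to Y are given 5′ to 3′ on the gene's strand, with the letters matched by the motifs in capitals, the X-like motif first and the Y box last.
RT1-Da, chr20:4515333-4515370, + strand: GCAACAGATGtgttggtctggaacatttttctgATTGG
RT1-Db1, chr20:4560238-4560274, − strand: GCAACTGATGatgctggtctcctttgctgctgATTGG
RT1-Bb, chr20:4604175-4604211, − strand: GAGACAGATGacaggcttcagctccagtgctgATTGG
RT1-DMa, chr20:4712395-4712432, − strand: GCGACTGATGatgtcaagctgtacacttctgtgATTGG
RT1-Db2, a second D beta locus that is not a member, chr20:4541708-4541743, − strand: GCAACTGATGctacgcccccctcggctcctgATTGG
The letters of the X-like motif and the spacing of 25 to 40 bases searched for were chosen after these promoters had been read, and both strands were searched. Of all 33469 promoter windows, 2.84% held the X-like motif, 37.5% held ATTGG and 0.0598% (20 windows) held the pair. These 20 were the 4 members, RT1-Db2, RT1-DOb and 14 other entries, among them the class I genes RT1-CE3, RT1-CE5, RT1-CE10 and RT1-M3-1. The RT1-Ba and Cd74 windows held ATTGG and no match to the X-like motif, which says only that these letters were not in the window.

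**Figure D1:**
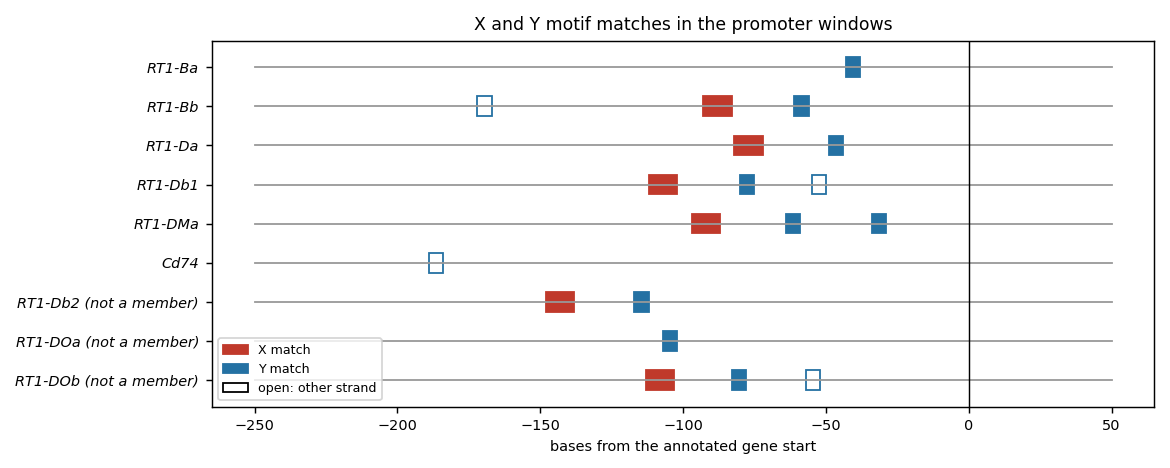
Matches to the X-like motif (red) and to the Y box (blue) in the 300-base RefSeq promoter windows of the class II genes, by distance in bases from the annotated gene start; open boxes lie on the other strand. In RT1-Bb, RT1-Da, RT1-Db1, RT1-DMa, RT1-Db2 and RT1-DOb an X match is followed by a Y match 30 to 33 bases downstream, counted from start to start.

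What each array read was a 60-base stretch of the transcript. The probes of the beta chains RT1-Bb and RT1-Db1 and of the loader chains RT1-DMa and RT1-DMb are printed. In male CLP vs sham RT1-DMa went the other way from these beta chains, and RT1-DMb was not called. The positions are those that the scanner files give on build rn4. No annotation of that build was used here, so that the exon or untranslated region they lie in is not stated.
RT1-Bb probe, chr20:4732187-4732246, − strand: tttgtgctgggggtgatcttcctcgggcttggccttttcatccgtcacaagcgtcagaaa
RT1-Db1 probe, chr20:4672665-4672724, − strand: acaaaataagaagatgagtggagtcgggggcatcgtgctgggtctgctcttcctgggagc
RT1-DMa probe, chr20:4844372-4844431, − strand: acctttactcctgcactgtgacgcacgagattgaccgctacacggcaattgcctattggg
RT1-DMb probe, chr20:4830313-4830372, − strand: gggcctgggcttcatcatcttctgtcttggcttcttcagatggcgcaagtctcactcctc
No member's probe shared a run of 20 bases with any other probe on the array. Whether the RT1-Db1 probe also binds transcripts of RT1-Db2 was not tested.

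Levels below are log2 processed signals, quantile-normalised within each sex, so that a difference of 1 is a doubling, and no probe's level is set against another's. A gene was called when its adjusted p-value, from limma fitted over all probes of the sex with Benjamini-Hochberg adjustment, was below a false discovery rate (FDR) of 1% against sham or 5% for CLP plus landiolol vs CLP. Of the 8 members, 7 passed the filter in both sexes, and in each of these the probe reported was well above background on 31 or 32 of the 32 arrays. RT1-Ba, the alpha chain of RT1-B, exceeded background clearly on 0 of 32 arrays and was not tested. Its levels ran from 1.81 to 1.89 in the male arrays and from 2.03 to 2.08 in the female ones. The slide and the scan separate the sexes completely, so that levels were compared between groups of a sex only. One array stood apart in what follows: female CLP replicate 5 was the lowest of its group in 7 of 7 members measured and had the lowest mean correlation with its own group, 0.951, where the others lay between 0.958 and 0.982.

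In males, sepsis went with lower RNA of the class II presenting chains, of the invariant chain and of the transactivator, and with higher RNA of one chain of the peptide loader. RT1-Bb, RT1-Da, RT1-Db1, Ciita and Cd74 were lower in the CLP group than in sham, by 1.62-fold for Cd74 to 2.52-fold for RT1-Da, and RT1-DMa was 2.69-fold higher. RT1-DMb was not called. In females, the same comparison called RT1-Da and Ciita lower, and the other 5 members measured did not pass. Thus 5 of 7 members were called lower in males, against a background of 4.7% of all genes tested, 1 of 7 was called higher against 4.18%, and 2 of 7 were called lower in females against 2.07% (called higher, 0 of 7 against 2.14%). The median log2 difference over the 7 members was −0.90 in males and −1.29 in females, beside −0.015 and −0.019 over all genes tested. Without any overlap between the groups, 5 members were lower in males (background 7.26%) and 3 in females (4.99%), namely RT1-Da, RT1-Db1 and Ciita. Fewer class II-positive cells and less class II RNA per cell cannot be told apart in bulk tissue.

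**Figure D2:**
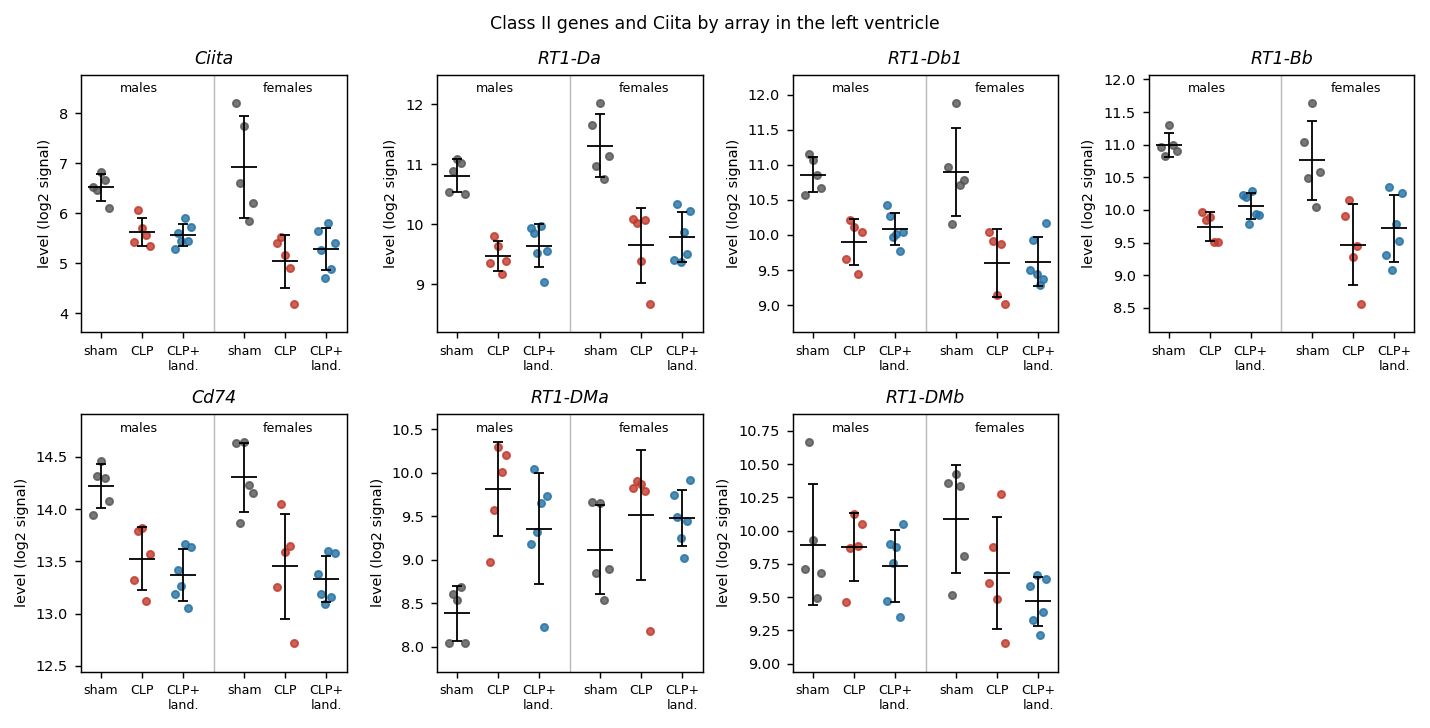
Log2 level of each of the 7 members measured on every array, by group, with males left and females right of the grey line in each panel; horizontal bars are means and error bars are 1 SD (n = 5, 5 and 6). Except for RT1-DMa and RT1-DMb, the male sham arrays lie above all CLP arrays, and in RT1-DMa they lie below them.

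Ciita is described first, as the regulator of the others. Its levels in male sham were 6.52, 6.47, 6.83, 6.66 and 6.11, and in male CLP 5.42, 6.06, 5.70, 5.57 and 5.35. The lowest sham array thus lay just above the highest CLP array. The 6 male CLP plus landiolol arrays ran from 5.28 through a median of 5.53 to 5.90, within the range of the CLP arrays but for the lowest. The log2 difference between CLP and sham was −0.90 ± 0.16 (SE; limma adjusted p = 0.00162).

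In females, Ciita varied more in the sham group than any other member did in any group, with an SD of 1.01. The 5 sham levels were 8.21, 6.60, 7.75, 5.85 and 6.21, and the CLP levels were 5.41, 5.52, 5.17, 4.89 and 4.18. All sham arrays exceeded all CLP arrays, and 2 of them, replicates 1 and 3, lay more than 1 log2 unit above the other 3. CLP plus landiolol ran from 4.71 through 5.34 to 5.80, also below every sham array. The log2 difference between CLP and sham was −1.89 ± 0.40 (limma adjusted p = 0.00755), and this call was lost without any 1 of 7 of the 10 arrays, with adjusted p-values between 0.00374 and 0.0221 over the 10 fits. These 7 arrays were sham replicates 1, 2 and 3 and CLP replicates 1, 3, 4 and 5, and the difference itself stayed between −2.16 and −1.57. Under normexp background correction it was −0.94 and not called (adjusted p = 0.013), and the call was also lost with the slide (adjusted p = 0.012) or the slide row (0.0617) as a term. A second Ciita probe was well above background on 8 of 32 arrays, and in females on 4 of 5 sham, 1 of 5 CLP and 0 of 6 CLP plus landiolol arrays. It passed the filter in females only, through the sham arrays, so that no difference of this probe is interpreted. Its CLP replicate 4 was at 7.71, above every sham array, and the other 4 CLP arrays were at 3.36 or lower.

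RT1-Da, the alpha chain of RT1-D, had male sham levels of 10.54, 10.88, 11.09, 11.02 and 10.50 and male CLP levels of 9.35, 9.81, 9.64, 9.18 and 9.38. In females the sham levels were 11.66, 10.97, 12.03, 10.76 and 11.14, and the CLP levels were 10.09, 10.02, 9.39, 10.07 and 8.67. In both sexes every sham array lay above every CLP array. RT1-Da was the only member called lower in both septic groups of both sexes that was also without overlap in all 4 of these comparisons. The log2 difference between CLP and sham was −1.34 ± 0.19 in males (limma adjusted p = 0.000214) and −1.67 ± 0.31 in females (limma adjusted p = 0.00316). The female call was lost without sham replicate 1 or without CLP replicate 3 (highest adjusted p = 0.0105), with the slide row as a term (adjusted p = 0.0271) and with only the 2 groups compared in the fit (0.0136).

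RT1-Db1, the beta chain that pairs with RT1-Da, followed with male sham levels of 10.57, 11.15, 11.07, 10.85 and 10.67 and male CLP levels of 9.65, 10.21, 10.12, 9.45 and 10.05. The groups did not overlap, and the difference was −0.97 ± 0.17 (limma adjusted p = 0.00132). In females, sham read 10.96, 10.16, 11.89, 10.72 and 10.79 and CLP read 10.04, 9.92, 9.14, 9.87 and 9.01. Here, too, no array of one group reached into the other, but the difference of −1.31 ± 0.29 missed the 1% level (limma adjusted p = 0.0104). It passed without sham replicate 2 (adjusted p = 0.00541), the lowest of the sham arrays. It also passed under percentile scaling (0.00876), normexp (0.00792), a filter on all arrays of the sex (0.00983), array weights (0.00745), the authors' table (0.00974) and SAM.

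RT1-Bb, the beta chain of RT1-B, had the smallest p-value of the members in males. Sham arrays were at 10.97, 10.83, 11.31, 10.99 and 10.90 and CLP arrays at 9.96, 9.84, 9.89, 9.51 and 9.51, so that the groups did not overlap. The log2 difference was −1.25 ± 0.14 (limma adjusted p = 3.21e-05). In females the difference was of the same size, −1.29 ± 0.34, but the arrays spread more widely and the groups met, with sham at 11.04, 10.49, 11.64, 10.05 and 10.57 and CLP at 9.91, 10.16, 9.28, 9.44 and 8.56. Only CLP replicate 2 exceeded the lowest sham array, and the difference did not pass (limma adjusted p = 0.025).

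Cd74 was measured by 10 copies of 1 probe, whose median SD within an array was 0.0315, far below the spread between animals. Male sham levels were 13.94, 14.32, 14.46, 14.30 and 14.07 and male CLP levels were 13.32, 13.79, 13.82, 13.12 and 13.57. The groups did not overlap, though the nearest arrays, at 13.94 and 13.82, were close, and the difference was −0.69 ± 0.16 (limma adjusted p = 0.00881). That call was lost without any 1 of 7 of the 10 arrays, namely sham replicates 2, 3, 4 and 5 and CLP replicates 1, 4 and 5 (highest adjusted p = 0.027). It was also lost with the slide (0.0131) or the slide row (0.0107) as a term, with only the groups compared (0.02) and with no filter (0.0154). Female sham arrays read 14.63, 13.87, 14.64, 14.23 and 14.15 and female CLP arrays read 13.25, 14.05, 13.59, 13.65 and 12.71. CLP replicate 2 lay above the lowest sham array, and the difference of −0.85 ± 0.22 was not called (limma adjusted p = 0.0239). It passed without that array (adjusted p = 0.00955).

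RT1-DMa, the alpha chain of the peptide loader, went the other way in males, and its promoter window holds the pair of boxes printed above. In male sham it stood at 8.04, 8.61, 8.53, 8.69 and 8.05 and in male CLP at 8.98, 9.57, 10.30, 10.01 and 10.20. Every CLP array was above every sham array, and the difference was +1.43 ± 0.31 (limma adjusted p = 0.00551). The call was lost without any 1 of 7 of the 10 arrays, namely sham replicates 1, 2, 3 and 5 and CLP replicates 3, 4 and 5 (highest adjusted p = 0.0178), while the difference stayed between 1.30 and 1.63. Female sham arrays were at 9.66, 8.85, 9.65, 8.54 and 8.89. Of the female CLP arrays, 4 lay between 9.79 and 9.91, above all sham arrays, and replicate 5 lay at 8.18, below all of them. The female difference was +0.40 ± 0.32 (limma adjusted p = 0.51), and without replicate 5 it was +0.73 and not called either.

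RT1-DMb, the beta chain of the loader, did not follow its partner. Its levels ran from 9.49 to 10.67 in male sham and from 9.46 to 10.13 in male CLP, with a difference of −0.02 ± 0.21 (limma adjusted p = 0.973) and a 95% confidence interval from −0.46 to 0.42. In females it ran from 9.51 to 10.43 in sham and from 9.15 to 10.28 in CLP, with a difference of −0.41 ± 0.21 (limma adjusted p = 0.274).

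**Figure D3:**
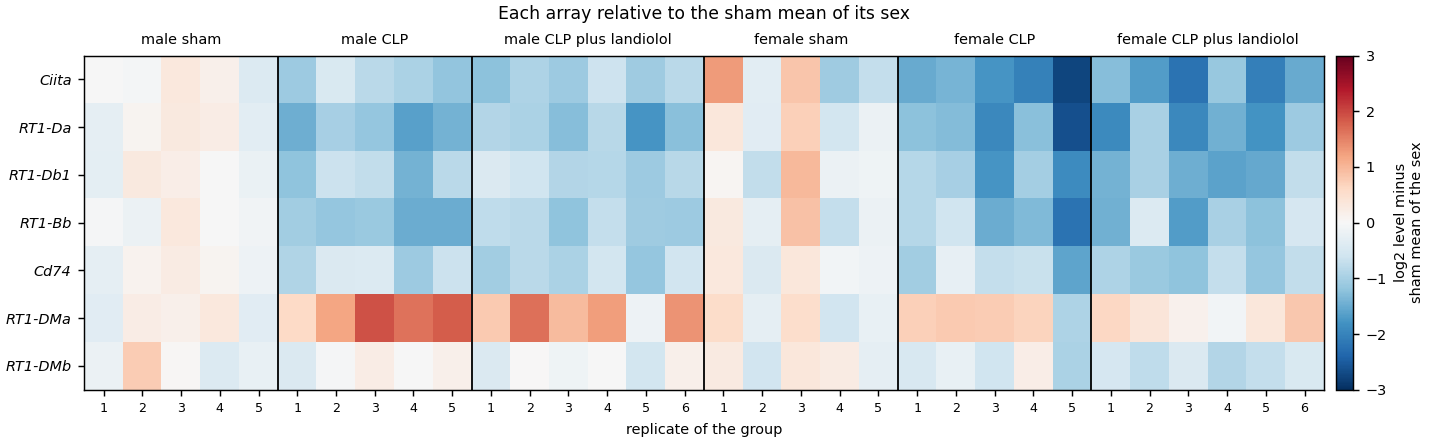
Level of each of the 7 members on each of the 32 arrays minus the mean of the sham arrays of the same sex, on the log2 scale; columns are replicates within the groups. The rows Ciita, RT1-Da, RT1-Db1, RT1-Bb and Cd74 are blue in both septic groups of both sexes, RT1-DMa is red in males but for CLP plus landiolol replicate 5, and female CLP replicate 5 is the bluest column of its group in every row.

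Landiolol was the second treatment compared. Between CLP plus landiolol and CLP, 0 of 7 members were called in males and 0 of 7 in females by limma, beside 1.77% and 0.0987% of all genes. At an unadjusted p below 0.05 in limma there was 1 of 7 members in males, RT1-Bb, beside 2619 of 16476 genes. In females there were 0 of 7, beside 1601 of 16211 genes. The members thus reached this level no more often than all genes did. Significance analysis of microarrays (SAM), the test of the study's methods, called 0 members in either sex. The male RT1-Bb arrays under landiolol ran from 9.79 through a median of 10.07 to 10.28, and the difference from CLP was +0.31 ± 0.13 (unadjusted p = 0.0287 in the limma fit, adjusted p = 0.271), with an interval from 0.04 to 0.59. The male differences of the other members lay between −0.45 for RT1-DMa and +0.19 for RT1-Db1. In females the differences lay between −0.21 for RT1-DMb and +0.25 for Ciita, and the widest interval, that of Ciita, ran from −0.57 to 1.07. For each of RT1-Da, RT1-Db1, RT1-Bb, Cd74 and Ciita, in both sexes, the upper end of the interval lay below the estimated size of that member's difference between CLP and sham. That size has its own interval, and both differences share the CLP arrays, so that a full return to sham was not tested by this. For female RT1-Bb the upper end was 0.94, and the CLP vs sham interval ran from −2.01 to −0.57. Some female differences between CLP plus landiolol and CLP went in different directions on the 2 slides. For RT1-Bb this difference was −0.495 on slide 1 and +0.88 on slide 2, and for RT1-Da −0.62 and +0.76.

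The CLP plus landiolol groups were also set against sham, and these comparisons share the sham arrays with those of CLP. In males, 5 of 7 members were called lower (background 2.08%), the same 5 genes as in CLP vs sham. Their log2 differences were −1.16 ± 0.18 for RT1-Da (limma adjusted p = 0.000772), −0.95 ± 0.16 for Ciita (0.00122), −0.94 ± 0.13 for RT1-Bb (0.000342), −0.85 ± 0.16 for Cd74 (0.00285) and −0.78 ± 0.16 for RT1-Db1 (0.00684). RT1-DMa was +0.97 ± 0.30 and not called (limma adjusted p = 0.0508), with replicate 5 at 8.22 among the sham arrays and the other 5 arrays between 9.18 and 10.05. Without that array it was called (adjusted p = 0.00717). The count of 5 dropped to 3 without sham replicate 3, where RT1-Db1 and Cd74 no longer passed. The RT1-Db1 call was lost without any 1 of 9 of the 11 arrays, all but sham replicate 1 and CLP plus landiolol replicate 1 (highest adjusted p = 0.0238).

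In females, CLP plus landiolol vs sham called 3 of 7 members lower (background 2.59%). These were RT1-Da at −1.53 ± 0.30 (limma adjusted p = 0.00324), RT1-Db1 at −1.29 ± 0.28 (0.00691) and Cd74 at −0.97 ± 0.21 (0.00718). Ciita, at −1.64 ± 0.38, missed the level narrowly (limma adjusted p = 0.0108) although no array overlapped with sham, and RT1-Bb, at −1.04 ± 0.33, was not called either (limma adjusted p = 0.0459). Leaving out 1 array at a time ended the RT1-Db1 call in 8 and the Cd74 call in 9 of the 11 fits, and the RT1-Da call in 2 (without sham replicate 1 or 3). All female sham arrays lay in the first row of their slides and all female CLP plus landiolol arrays in the second, so that row and group cannot be told apart directly, and with the row as a term, which then rests on the CLP arrays, no member was called (adjusted p = 0.558 for RT1-Da). The size also differed between slides, with RT1-Da at −2.18 on slide 1 and −0.72 on slide 2 and RT1-Bb at −1.78 and −0.14. In CLP vs sham the slides were closer, with RT1-Da at −1.56 and −1.48 and Ciita at −2.18 and −1.31. The female count of 3 fell to 0 without sham replicate 1 or sham replicate 3, and to 1 without sham replicate 5 or CLP plus landiolol replicate 1, 3 or 5. The female CLP vs sham count of 2 fell to 0 without sham replicate 1 or CLP replicate 3, and to 1 without sham replicate 3 or CLP replicate 1, 4 or 5.

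**Figure D4:**
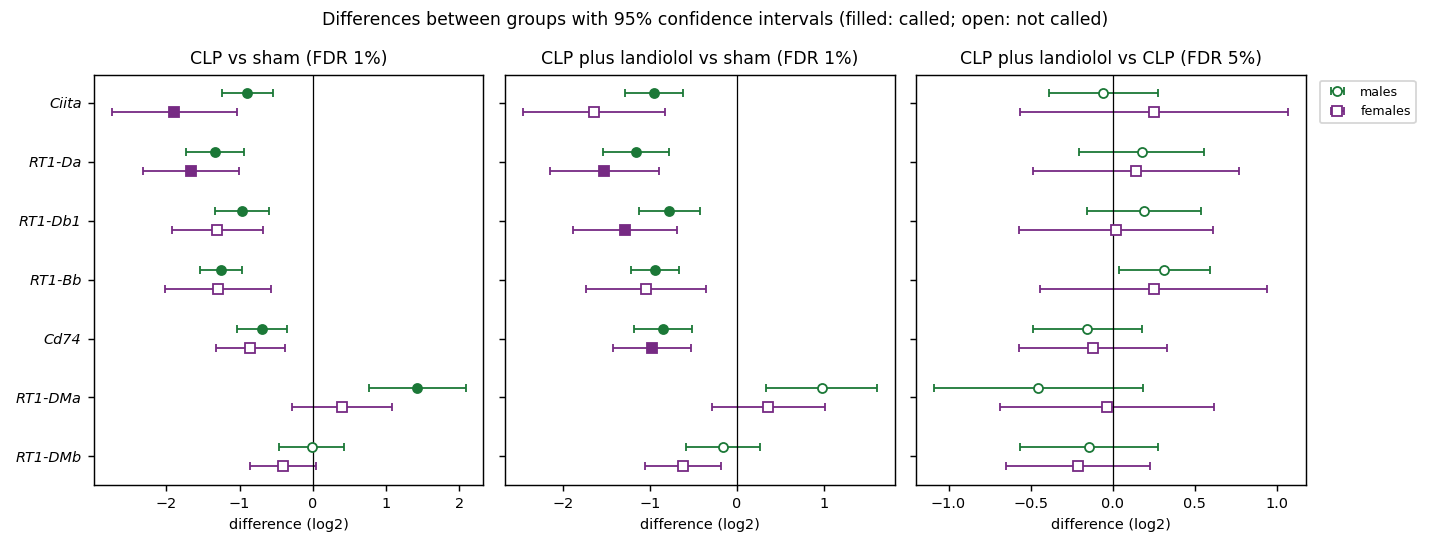
Log2 difference of each of the 7 members in the 3 comparisons, with 95% confidence intervals from limma; circles are males, squares are females, filled symbols were called at the FDR given above each panel. Against sham the 5 rows from Ciita to Cd74 lie left of 0 in both sexes, and against CLP no symbol is filled.

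Whether the sexes differed was tested on the differences of differences, with both sexes normalised together. No member was called in CLP vs sham, in CLP plus landiolol vs CLP or in CLP plus landiolol vs sham, as was no gene on the array (0% of 15870 genes in each of the 3 limma tests). At an unadjusted p below 0.05 there were 581, 756 and 1111 genes. Among the members, 2 reached it, both in CLP vs sham. RT1-DMa was higher by 1.41 in males and by 0.41 in females, a female minus male difference of −1.01 ± 0.46 (limma interaction, adjusted p = 0.9999, unadjusted 0.037), and Ciita was at −0.90 in males and −1.89 in females, a difference of −0.99 ± 0.45 (adjusted p = 0.9999, unadjusted 0.0351). In the other 5 members this difference was 0.40 or less in size, with an interval of −0.85 to 0.70 for RT1-Bb.

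The other genes of the pathway were taken from lists, of whose 117 entries 99 were measured. Among other class II loci, 2 of 5 were measured, and neither was called. RT1-Db2 was at −0.91 ± 0.29 in male CLP vs sham (limma adjusted p = 0.0459) and at −1.36 ± 0.30 in female (adjusted p = 0.0101), where no array overlapped. RT1-DOb, a chain of the molecule that restrains RT1-DM, was at −0.20 in male CLP vs sham without passing. In females it was well above background on 4 of 5 sham, 1 of 5 CLP and 1 of 6 CLP plus landiolol arrays. There it passed the filter only through the sham arrays, so that no female difference of RT1-DOb is interpreted. Of the 7 genes of the factors that bind the X and Y boxes, 1 changed, Nfyc, a subunit of the CCAAT-binding NF-Y, which was lower by 0.63 ± 0.10 in male CLP than in male sham (limma adjusted p = 0.000775). Rfx5, Rfxap, Rfxank, Nfya, Nfyb and Creb1 were not called in any comparison.

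On the route from interferon gamma to Ciita, 10 of 11 genes were measured. In males, 1 of 10 was called in CLP vs sham, Jak2, the kinase of the interferon gamma receptor among others, at +2.03 ± 0.27 (limma adjusted p = 0.000151). In females, Irf1, the factor that acts on the interferon-responsive Ciita promoter, ran from 16.05 to 16.58 in sham and from 13.19 to 14.90 in CLP. These ranges did not overlap, and the difference was −2.24 ± 0.39 (limma adjusted p = 0.00216). Both genes went the same way in the other sex without being called. Male Irf1 averaged 15.11 in sham and 13.96 in CLP, and female Jak2 averaged 9.44 in sham and 10.67 in CLP. Socs1, a feedback inhibitor of the route, was called lower in female CLP plus landiolol vs sham, at −1.85 ± 0.34 (limma adjusted p = 0.00221) and above background on 3 of 6 CLP plus landiolol arrays. Irf1 was called lower there as well. In this comparison slide row and group cannot be told apart directly, and no fit with the row is given for these genes. The same holds for the calls of Prdm1 and Ddt below.

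The class I genes, which interferon gamma also induces, were a point of comparison. In female CLP vs sham 6 of 17 were called lower and none higher, with a median of −1.09, and in males 0 of 17 were called, with a median of −0.24. Among the called genes, the 4 with the largest female changes were Tap1 at −2.88 ± 0.45 (limma adjusted p = 0.000923), Nlrc5, the class I counterpart of Ciita, at −2.50 ± 0.42 (0.0015), Psmb9 at −2.34 ± 0.41 (0.00213) and Psmb10 at −1.21 ± 0.24 (0.00437). No interaction with sex was called for any gene.

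Genes that act against class II were few on the lists. The 4 were Il10, Prdm1 and the ligases that take class II off the surface. Il10 passed the filter only through septic groups in either sex, so that no test of it is given. It was well above background on 1 of 5 male and 0 of 5 female sham arrays and on 4 of 5 CLP arrays of each sex. In females the level in CLP was at least 2.82-fold higher than in sham, taking the dimmest probe above background on each sham array as the floor. Prdm1, a repressor of Ciita, was called lower in female CLP plus landiolol vs sham at −0.90 ± 0.21 (0.00965). Among 8 genes of antigen processing in the endosome and lysosome, Ctsl alone was called in CLP vs sham, higher by 1.30 ± 0.18 in males (limma adjusted p = 0.000211) and by 0.94 ± 0.19 in females (0.00465). Cathepsin L cuts the invariant chain, as does cathepsin S, whose gene Ctss was not called. Of the 5 co-stimulation genes measured, 3 were lower in male CLP vs sham and 1 in female. Cd83, a marker of mature dendritic cells that also holds class II at the surface, was at −2.78 ± 0.25 in males (limma adjusted p = 5.05e-06), Pdcd1lg2, above background on 3 of 5 CLP arrays, was at −1.71 ± 0.28 (0.000767) and Icoslg, the ligand of ICOS, was at −1.23 ± 0.16 (0.000129) in males and −1.39 ± 0.17 (0.000184) in females. Of the 4 genes measured among the ligands and co-receptors of CD74, none was called in CLP vs sham, and Ddt was called higher in female CLP plus landiolol vs sham, at +0.61 ± 0.11 (0.00232).

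Few markers of the cells that carry class II were called. The summed signal of the 7 dendritic cell markers ran from 545.6 to 1010 in male sham and from 383 to 600.1 in male CLP, and from 651.9 to 1318 in female sham and from 396 to 705.7 in female CLP, so that the groups met in both sexes. Zbtb46 and Batf3, with the highest signals of the list, weigh most in this linear sum. The CLP vs sham differences of the markers tested ran from −0.85 to +0.145 in males and from −1.04 to +0.57 in females. Of these markers, 0 of 5 tested were called in males (limma) and 1 of 4 in females, Zbtb46, a factor of classical dendritic cells, at −1.01 ± 0.21 (limma adjusted p = 0.00557). Xcr1 cleared background on 0 of 32 arrays. The 13 macrophage and monocyte markers summed to 26060 to 45100 in male sham and 37000 to 45710 in male CLP, and to 30790 to 36750 and 32520 to 47570 in females. Of the 12 tested, 2 were called, both higher in both sexes, Cd68 (+0.86 ± 0.14 in males and +0.72 ± 0.15 in females) and Adgre1 (+2.79 ± 0.34 and +2.79 ± 0.36, limma adjusted p of 7.66e-05 and 0.000259). Of the B cell markers, Ms4a1, Cd79a and Cd79b were well above background on 0 to 3 arrays, while Pax5 and Cd22 were so on 32 of 32 and were not called, and of the T cell markers none was called. The neutrophil markers, cells that carry little class II, summed to 38.18 to 48.96 in male sham and 130.8 to 788.4 in male CLP, and to 31.18 to 66.08 and 168.9 to 430.8 in females. Endothelial markers summed to 39350 to 60530 in male sham and 45030 to 65160 in male CLP, and 1 of 8, Emcn, was called lower in both sexes. Ptprc, which all leukocytes carry, was not called in CLP vs sham (−0.14 in males, −0.23 in females) and was higher by 0.55 ± 0.13 in male CLP plus landiolol than in male CLP (limma adjusted p = 0.045). The cardiomyocyte genes defined the tissue, with all 8 well above background on 32 of 32 arrays and none called in CLP vs sham. What part these cell types have in the class II result was not tested.

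**Figure D5:**
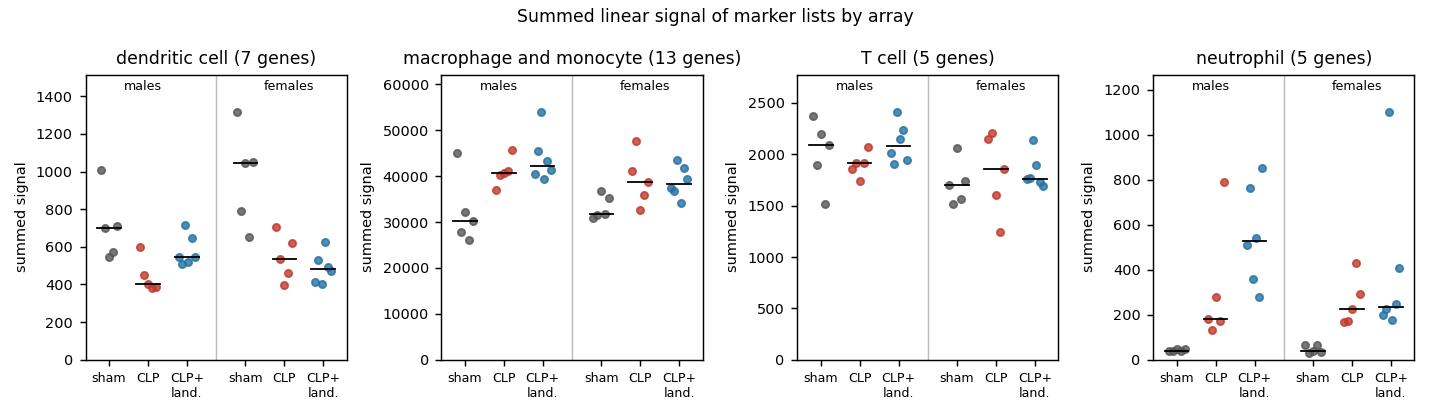
Summed linear signal of the markers of 4 cell types on each array, by group, with males left and females right of the grey line; horizontal bars are medians. The dendritic cell sums, in which Zbtb46 and Batf3 weigh most, tend to be highest in sham. The macrophage and monocyte sums of CLP lie mostly above those of sham, and the neutrophil sums are highest in the septic groups.

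The genes whose pattern over the 32 arrays lay nearest to the members' were sought by the root mean square (RMS) difference from the median of the 7 members, each gene taken relative to the sham mean of its sex, among 15801 genes. RT1-Db1, Cd74 and RT1-Bb were the 3 nearest, which their own part in the median favours, and RT1-Db2 followed at 0.285 log2 units as the nearest gene outside the members. The next, passing over 1 gene at place 13 that has only a locus number for a name, were Tmem64 (0.32), Rassf3 (0.32), Slc25a15 (0.33), Cptp (0.34), Plpp7 (0.35), Icoslg (0.35), Nr2f6 (0.35), Eif4e3 (0.35) and Bpnt1 (0.35). RT1-Da, with its larger changes, stood in place 34, Ciita in place 189, RT1-DMb in place 1322 and RT1-DMa in place 14823. The order describes likeness on these arrays and was not tested.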

How the data were processed

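The arrays were 1-colour Agilent rat arrays. Per the labels, the authors extracted the scanner intensity values with Agilent Feature Extraction 10.5, and the processed intensity used here was corrected for background by that software. A table of the authors' own log2 values was deposited too, with 38223 (males) or 37605 (females) spots filled in per array. These followed the scanner values with a Spearman correlation of 0.995 or more, their column medians lay between 9.62 and 9.71, and the constant added is unknown. Here, spots that were no controls were taken to log2, outlier spots were left out (5 spots of members), copies of a probe were averaged and arrays were quantile-normalised within each sex. Probes well above background on 80% of the arrays of at least 1 group were kept, 25866 in males and 25395 in females of 45598. limma 3.58.1 in R 4.3.3 was fitted to the 3 groups of a sex, all probes together, with FDR levels of 1% for either septic group against sham and 5% between the septic groups. Interactions were fitted on 24769 probes kept in both sexes, at 5%. The probe with the highest mean stood for a gene, and background percentages count 1 probe per gene. Up to 4 called genes of a list were named in a comparison, by the size of change, and the 10 genes nearest in pattern. The members and lists were chosen with earlier results of these data known. Replicate numbers are in accession order, and p-values measure the spread between these arrays, whose number limits the precision. Some genes of the lists are not reported here. The functions were tested on simulated data. A probe was a member's if either annotation version in the scanner files named it. Alternatives were other scalings, background corrections, filters and fits, slide and slide row as terms, SAM with 100 drawn permutations, the authors' table and each array left out.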

Additional observations from a re-analysis of the deposited data

Results flagged for a closer look

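In 1 of 42 groups of member levels, the array farthest out lay beyond Dixon's 95% limit, and chance alone passes it in about 1 of 20 groups. RT1-DMa in female CLP replicate 5 was at 8.183, and the nearest other array of the group was at 9.792, a gap of 0.933 of the range of the group. The same array was the lowest of its group in all 7 members measured, and its median member level lay furthest below sham.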

How the results depend on the processing

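The counts of members called in males and all counts of CLP plus landiolol vs CLP kept within 1.5 times their value under 12 of 12 alternatives. The female CLP vs sham count of 2 was 1 with no filter and with the slide as a term, 0 with only the groups compared or with slide row as a term, and 5 at an FDR of 5%. The female CLP plus landiolol vs sham count of 3 was 1 with no filter, 0 with the row as a term and 5 at an FDR of 5%. The background shares against sham given above are for 1%. Those at 5% were not computed, so that the counts of 5 have no share to be set against. Leaving out each array in turn gave 4 to 6 members in male CLP vs sham, 3 to 5 in male CLP plus landiolol vs sham, 0 to 3 in both female comparisons with sham, and 0 in both comparisons with CLP. No member differed between the sexes under percentile scaling or without any 1 array.

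No called difference changed sign. Apart from values within single slides and fits without 1 array, reversals were of differences between CLP plus landiolol and CLP that were not called. In males this was Ciita under 75th percentile scaling (0.033). In females these were RT1-Db1 with the slide as a term (−0.0063), and RT1-DMa (0.49) and Cd74 (0.15) with the row as a term. The second Ciita probe gave −0.82 in female CLP plus landiolol vs CLP, the other sign from the probe reported. It was well above background on 1 of 5 CLP and 0 of 6 CLP plus landiolol arrays. That value rested on CLP replicate 4, at 7.71, and cannot show a reversal. Among fits without 1 array, RT1-DMb reversed in male CLP vs sham (range −0.12 to 0.18) and CLP plus landiolol vs sham (−0.26 to 0.033), as did, for CLP plus landiolol vs CLP, Ciita in males (−0.13 to 0.053) and RT1-Da (−0.11 to 0.25), RT1-Db1 (−0.13 to 0.13), RT1-DMa (−0.37 to 0.062) and Cd74 (−0.30 to 0.030) in females. The female Ciita difference in CLP vs sham was −0.94 under normexp and not called, and it also missed the threshold under percentile scaling, with no filter, with only the groups compared, with array weights and with slide or row as a term. The male Cd74 call in CLP vs sham was lost with no filter, with only the groups compared and with slide or row as a term, and those of RT1-DMa in CLP vs sham and of RT1-Db1 in CLP plus landiolol vs sham with no filter. The cause was not tested. The groups were made up of different animals, so that there were no pairs to analyse.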
